A study of Mus musculus with 18 samples.

Results

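The DNA replication and S-phase genes are 38 genes listed by symbol, among 55401 genes in the mRNA-seq count files of XPO4 KO and WT NIH/3T3 cells, and all 38 were found and tested. NIH/3T3 is a mouse embryonic fibroblast line. The KO cells were made with CRISPR-Cas9, which left the same edit on both copies of Xpo4, the gene of a nuclear export receptor, and the WT cells were the unedited line. There were 3 mRNA-seq libraries of each genotype, and 12 circRNA-seq libraries, 2 of each genotype from nuclear, cytoplasmic and total RNA. The KO is 1 edited line, so an effect of the edit and a difference between cell lines cannot be told apart. Nothing says whether replicates came from separate cultures, so p-values measure only the spread between these libraries.

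DNA replication begins when the origin recognition complex, with Cdc6 and Cdt1, loads the ring-shaped Mcm2 to Mcm7 helicase on chromatin, a step called licensing. Mcm10, Cdc45 and the GINS complex then start the helicase, and DNA polymerases, the Pcna clamp, its Rfc loader and the enzymes that join lagging-strand fragments copy both strands. Many of these genes are transcribed from promoters bound by E2F proteins, and cyclin E with Cdk2 drives entry into S phase.

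The genotype labels of the mRNA-seq libraries could not be verified from the targeted gene. Inside each mRNA count file the column is headed by the opposite genotype. Groups were set by the titles, and every mRNA direction given would reverse if the headings were right. Xpo4 (14:57577521-57665430, mm10) had 712, 504 and 687 reads in the libraries labelled KO and 657, 614 and 685 in those labelled WT. The groups overlapped (log2 fold change 0.18 ± 0.11 SE, edgeR adjusted p = 0.19). The overlap came from KO replicate 2, the library with 504 reads. Without KO replicate 2, Xpo4 was higher in the libraries labelled KO (log2 fold change 0.34, edgeR adjusted p = 0.00025). Leaving out any other library gave log2 fold changes from 0.10 to 0.21 (edgeR adjusted p from 0.22 to 0.49). The Y-linked gene Ddx3y had 594, 506 and 511 reads in the libraries labelled KO and 0 in all 3 labelled WT. Circles of the Y-linked gene Uty were present in the total-RNA circRNA libraries of both genotypes, with 19 and 24 junction reads in KO and 10 and 12 in WT. Whether the mRNA libraries of both genotypes came from the line that gave the circRNA libraries was not tested. The libraries held between 16974062 and 22057323 counted reads. KO replicate 2 stood apart from the other KO replicates, and counts without it are given beside the main ones. The extraction text in the labels speaks of peripheral blood. The 8 blood markers summed to between 3.06 and 3.54 CPM (counts scaled to a common library size) in KO. In WT they summed to between 7.62 and 9.5. Over all 6 libraries, 10 fibroblast markers summed to between 20578 and 24059 CPM. Ptprc had 32, 26 and 21 reads in KO and 108, 103 and 105 in WT. Ppbp had 10, 12 and 12 reads in KO and 78, 56 and 61 in WT. Lyz2 (11, 10 and 13 against 3, 1 and 2) and Hba-a1 (8, 7 and 6 against 0) went the other way. Cd3e and Hbb-bs were at 0 in all 6.

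The log2 fold changes are KO minus WT, with standard errors from edgeR's quasi-likelihood test and p-values adjusted by Benjamini-Hochberg over all 14688 genes tested. The threshold was 0.05. Levels are CPM scaled with edgeR's TMM factors. Of the 38 members, 18 were lower and 6 higher in the libraries labelled KO, and 14 did not pass the threshold. The test was past the threshold for a large part of the transcriptome, at 48.7% of all genes tested, 23.6% lower and 25.1% higher. Among genes with a mean CPM of at least 10, a level all members but Fen1 reached, these shares were 24.9% and 30.2%. Lower members made up 47.4% of the list and higher members 15.8%. The median log2 fold change was -0.16 for members and -0.003 for all genes tested. Without KO replicate 2, 20 members were lower and 5 higher. In the plot of the members by library, the 3 KO points of 20 members lay below every WT point and those of 6 members lay above. Such separation was found for 28.7% and 29.1% of all genes tested.

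**Figure D1:**
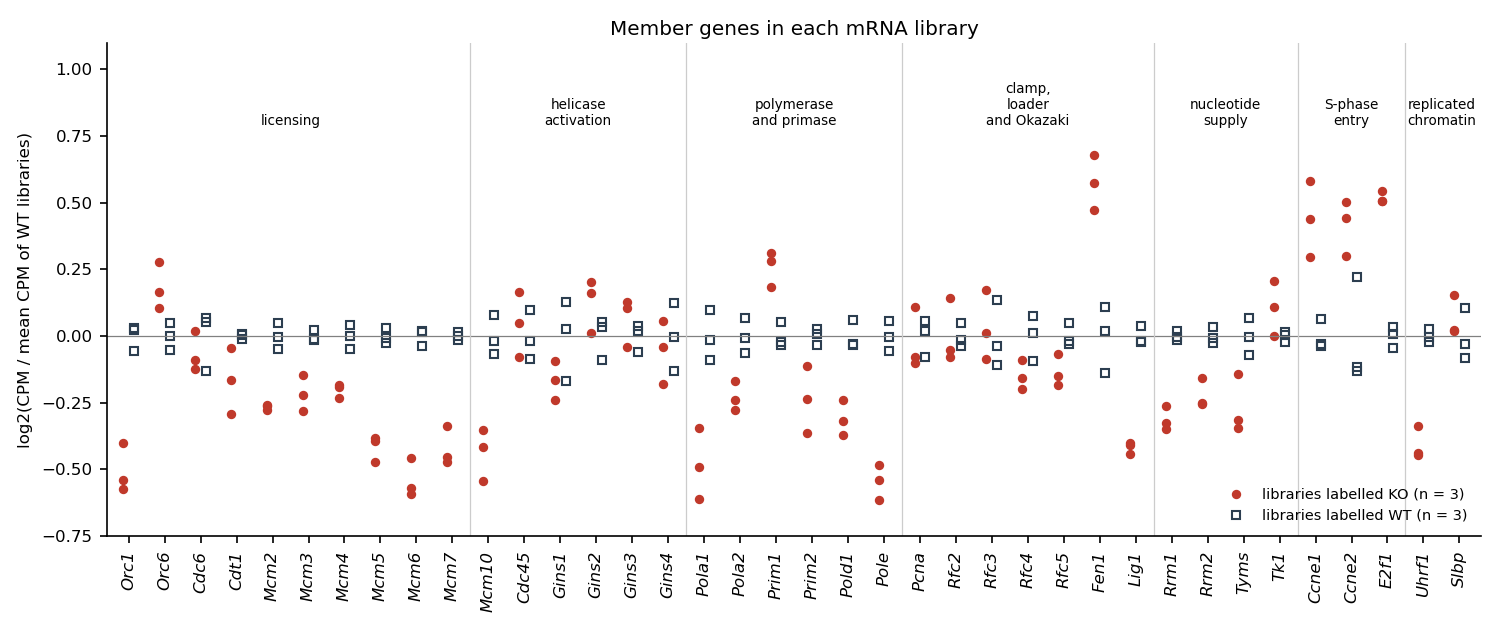
Each mRNA-seq library's CPM relative to the mean CPM of the 3 WT libraries (log2), for each of the 38 member genes grouped by role; filled circles are libraries labelled KO and open squares those labelled WT. The 6 helicase genes Mcm2 to Mcm7 have all KO circles below the WT squares, and Ccne1, Ccne2 and E2f1 have all KO circles above.

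Of the 10 licensing genes, 7 were lower and 1 higher. All of Mcm2 to Mcm7, which encode the helicase ring, were lower (median log2 fold change -0.34). Mcm6 (1:128331590-128359664) had the largest fold change of the 6 and measured 221, 243 and 224 CPM in KO and 325, 338 and 337 CPM in WT. The genotypes did not overlap, and the log2 fold change was -0.54 ± 0.06 (adjusted p = 3.6e-06). Mcm5 measured 149, 157 and 158 CPM in KO and 203, 205 and 210.3 CPM in WT, a log2 fold change of -0.42 ± 0.05 (adjusted p = 2.7e-05). Mcm7 was at 181, 197 and 179 CPM in KO and 246, 251 and 248 CPM in WT (-0.42 ± 0.06, adjusted p = 3.4e-05). Every KO library of these 3 genes lay below every WT library. Mcm2 measured 171, 173 and 173 CPM in KO and 207, 201 and 215 CPM in WT (-0.27 ± 0.05, adjusted p = 0.00094). Mcm3 was at 202, 221 and 210.4 CPM in KO and 243, 249.2 and 244 CPM in WT (-0.21 ± 0.05, adjusted p = 0.0051). Mcm4 was at 189.6, 183 and 189 CPM in KO and 208, 222 and 216 CPM in WT (-0.20 ± 0.05, adjusted p = 0.0063). The genotypes did not overlap for these genes either, with smaller distances. The share of Mcm6 in the summed CPM of Mcm2 to Mcm7 was 19.9%, 20.7% and 19.8% in KO and 22.7%, 23.1% and 23% in WT.

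The loading factors did not move together. Orc1, the largest subunit of the origin recognition complex, measured 18.9, 18.5 and 20.9 CPM in KO and 26.5, 28.0 and 28.1 CPM in WT (-0.50 ± 0.08, adjusted p = 0.00017). Orc6, another subunit of the same complex, measured 55.4, 59.8 and 53.2 CPM in KO and 47.7, 49.4 and 51.1 CPM in WT. It was higher in KO (0.18 ± 0.07, adjusted p = 0.032), and the call was lost in 8 of 13 alternatives. Cdt1, the licensing factor that is degraded once S phase begins, measured 82.3, 97.8 and 90.01 CPM in KO and 101, 101 and 100.1 CPM in WT, just outside the threshold (adjusted p = 0.051). It was past the threshold and lower in some alternatives. Its log2 fold change ranged from -0.24 to -0.10 over the alternatives, and its edgeR adjusted p from 0.00063 to 0.27. Cdc6 overlapped between genotypes, with a log2 fold change of -0.06 ± 0.08.

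Of the genes that activate the helicase, 1 of 6 was past the threshold. Mcm10, which helps convert the loaded helicase into an active one, measured 31.7, 34.7 and 36.2 CPM in KO and 44.2, 48.8 and 45.7 CPM in WT (-0.43 ± 0.07, adjusted p = 0.00027). Gins2, highest of the group in fold change, measured 27.1, 26.4 and 23.8 CPM in KO and 22.2, 24.4 and 24.1 CPM in WT (0.13 ± 0.08, adjusted p = 0.21), and 67.3% of its exon bases are shared with Gse1. The 4 GINS genes and Cdc45 overlapped between genotypes, at log2 fold changes from -0.16 to 0.13. With the trend of exon length and GC content removed, Gins1 (-0.31, adjusted p = 0.014) and Gins4 (-0.18, adjusted p = 0.022) were lower.

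Polymerase and primase genes were 5 lower and 1 higher of 6. Pole (5:110286306-110337474), the catalytic subunit of the leading-strand polymerase, measured 66, 62.7 and 68.7 CPM in KO and 99.8, 92.2 and 95.7 CPM in WT. The genotypes did not overlap, and its log2 fold change of -0.54 ± 0.06 (adjusted p = 6.8e-06) was the lowest of all members. Pola1, the catalytic subunit of the polymerase that works with primase, measured 49.5, 45.5 and 54.7 CPM in KO and 68.9, 74.3 and 65.3 CPM in WT (-0.48 ± 0.08, adjusted p = 0.00017). Pola2, its partner subunit, measured 99.4, 96.9 and 104 CPM in KO and 117, 112 and 123 CPM in WT (-0.23 ± 0.06, adjusted p = 0.0055). Pold1, the catalytic subunit of the lagging-strand polymerase, measured 65.3, 68.9 and 63 CPM in KO and 79.6, 79.6 and 84.9 CPM in WT (-0.31 ± 0.06, adjusted p = 0.00083). Each of these 4 genes was below the WT range in every KO library. The primase subunits went apart. Prim2 measured 27.1, 29.7 and 32.3 CPM in KO and 34.1, 35.5 and 35.1 CPM in WT (-0.23 ± 0.08, adjusted p = 0.022), and its call was lost in 4 alternatives. Prim1, the catalytic primase subunit, measured 46.5, 49.8 and 50.8 CPM in KO and 40.3, 40.04 and 42.5 CPM in WT (0.26 ± 0.06, adjusted p = 0.0049).

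Fold changes also differed by chromosome. The median over all genes tested was -0.21 on chromosome 1 and 0.45 on chromosome 10. Mcm3 and Prim2 lie on chromosome 1, and their fold changes minus that median were -0.006 and -0.02. Mcm6 is on chromosome 1 too and stayed at -0.33. Prim1 lies on chromosome 10 and was 0.19 below its median. Of the 34 members on other chromosomes, 15 were lower and 5 higher. The part of these chromosome-wide differences in the members' values was not tested.

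**Figure D2:**
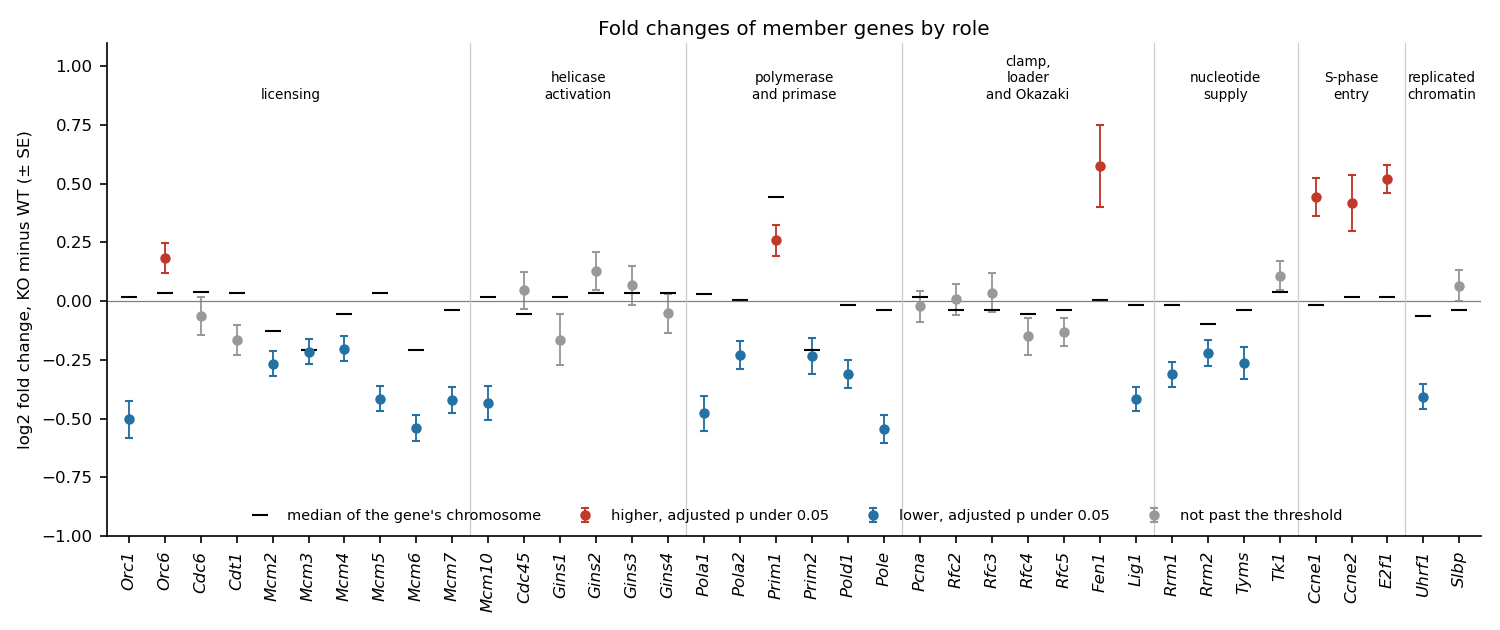
Log2 fold change of each member (KO minus WT, ± SE, n = 3 per genotype) by role, with a black dash at the median over all genes tested on the same chromosome. Mcm3 and Prim2 sit on the dash of chromosome 1, and Prim1 lies under that of chromosome 10, whereas most other lower members lie well below their dash.

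The clamp, loader and Okazaki fragment genes did not pass the threshold, except for Lig1 and Fen1. Lig1, the ligase that joins Okazaki fragments, measured 151, 149.9 and 146 CPM in KO and 196, 196 and 204 CPM in WT (-0.42 ± 0.05, adjusted p = 2.2e-05). Fen1, the flap nuclease acting in the same step, had 87, 75 and 77 reads in KO and 55, 60 and 72 reads in WT, or 4.86, 4.22 and 4.52 against 2.76, 3.08 and 3.28 CPM. The log2 fold change was 0.57 ± 0.17 (adjusted p = 0.015), and the call was lost in 4 alternatives. The exons of Tmem258 and Gm10143 share 84.2% of Fen1's exon bases, and reads in shared bases were not assigned to either gene, so its value rests on a small part of the gene. Pcna, the sliding clamp, overlapped between genotypes at -0.02 ± 0.07. Rfc2 to Rfc5 had log2 fold changes between -0.15 and 0.04, and none was past the threshold. With the trend of exon length and GC content removed, Pcna (-0.16, adjusted p = 0.0051), Rfc4 (-0.32, adjusted p = 0.0012) and Rfc5 (-0.16, adjusted p = 0.018) were lower. Rfc5 did not overlap between genotypes (adjusted p = 0.088).

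Of the nucleotide supply genes, 3 of 4 were lower. Rrm1, the large subunit of ribonucleotide reductase, measured 208, 211 and 221 CPM in KO and 262, 268 and 264 CPM in WT (-0.31 ± 0.05, adjusted p = 0.00026). Rrm2, the small subunit, measured 99.7, 107 and 100.05 CPM in KO and 117, 122 and 118 CPM in WT (-0.22 ± 0.06, adjusted p = 0.005). Tyms, which makes thymidylate, measured 54.5, 62.6 and 55.6 CPM in KO and 65.9, 69.0 and 72.5 CPM in WT (-0.26 ± 0.07, adjusted p = 0.0058). The genotypes did not overlap for any of the 3. Tk1, the thymidine salvage kinase, measured 120.2, 129 and 112 CPM in KO and 112, 113 and 109.8 CPM in WT, and did not pass (adjusted p = 0.16).

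The 3 S-phase entry genes were all higher. E2f1 (2:154559407-154569892), a transcription factor that activates replication genes, measured 58, 56.6 and 56.6 CPM in KO and 40.8, 39.99 and 38.7 CPM in WT (0.52 ± 0.06, adjusted p = 1.1e-05). Ccne1, a cyclin E gene, measured 36.8, 40.7 and 33.4 CPM in KO and 26.5, 26.6 and 28.4 CPM in WT (0.44 ± 0.08, adjusted p = 0.00057). Ccne2, the other cyclin E gene, measured 13.02, 14.4 and 14.98 CPM in KO and 9.65, 12.3 and 9.74 CPM in WT (0.42 ± 0.12, adjusted p = 0.011), and its call was lost with the trend of exon length and GC content removed (adjusted p = 0.069). No KO library fell in the WT range for these genes. In the remaining pair, Uhrf1, which brings the maintenance DNA methyltransferase to newly copied DNA, measured 209.5, 210.3 and 226 CPM in KO and 290.2, 284 and 281 CPM in WT (-0.41 ± 0.05, adjusted p = 3.4e-05). Slbp, the histone mRNA binding protein, measured 71.2, 78 and 71 CPM in KO and 66.2, 68.7 and 75.3 CPM in WT (0.07 ± 0.07, adjusted p = 0.43).

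Levels between genes were compared as TPM, counts scaled for exon length and library size, with SD over 3 libraries. In WT Mcm6 was the highest member at 231 ± 1.85 TPM, and the next, Uhrf1 (217 ± 8.38), Mcm3 (211 ± 4.63) and Pcna (206 ± 6.58), lay within each other's spread. In KO Pcna (204 ± 7.43) and Mcm3 (182 ± 2.93) led, and Mcm6 (159 ± 1.055) did not differ from Mcm4 (169 ± 10.3) and Uhrf1 (164 ± 11.6) beyond their spread. In WT Ccne2 was the lowest of the members other than Fen1, at 9.77 ± 1.36 TPM. In KO it was at 13.1 ± 0.948 TPM and did not differ from Mcm10 (14.4 ± 1.02) beyond their spread. Ccne2 shares 17.4% of its exon bases with Ints8, so its TPM is somewhat understated. Fen1 and Gins2 cannot be placed in this order, because the length of their exons includes the shared bases in which reads were not assigned.

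Fold changes followed exon length. Over genes with a mean CPM of at least 10 the Spearman correlation of the log2 fold change with summed exon length was -0.22 across 9698 genes, and over the 38 members it was -0.51. Genes of one library share its depth and base composition, so these are descriptions. In the longest length quartile of genes the median log2 fold change was -0.08, against -0.43 for the 5 members in it. In the second quartile it was 0.06, against -0.18 for 16 members. With the trend of length and GC content removed, 24 members were lower and 4 higher. The same adjustment moved calls over all genes. Of 14677 genes tested that way, 4245 were lower and 3566 higher, against 3467 and 3684 of 14688 in the main fit.

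**Figure D3:**
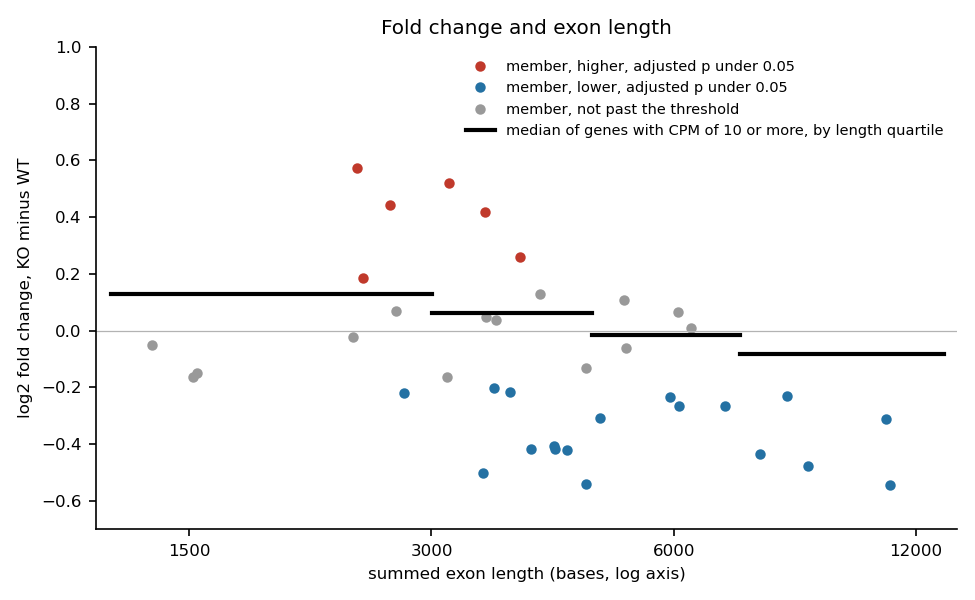
Log2 fold change (KO minus WT) of the 38 members against summed exon length on a log axis, with bars at the median of all genes with a mean CPM of at least 10 in each quartile of length. The median falls from 0.13 in the shortest quartile to -0.08 in the longest, and the lower members lie under the bar of their own quartile.

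The same direction was looked for in lists of related genes that were not members. Over all genes tested 23.6% were lower and 25.1% higher, and 24.9% and 30.2% at a mean CPM of at least 10. Of 34 other replication genes, 14 were lower (41.2%) and 5 higher (14.7%), with a median log2 fold change of -0.14. Atad5, which unloads the clamp, was lower, at 29.5, 23.5 and 30.7 CPM in KO against 44.3, 43.6 and 44.4 CPM in WT (-0.66 ± 0.09). Recql4 (-0.56 ± 0.07) and Ticrr (-0.55 ± 0.08), both acting at origin firing, were lower too. Dna2 (0.43 ± 0.13), Tipin (0.43 ± 0.10) and Pold4 (0.38 ± 0.13) were higher, but Dna2 lies on chromosome 10 and was -0.02 from the median there. Of 21 genes of nucleotide synthesis 9 were lower (42.9%) and 1, Samhd1 (0.21 ± 0.06), was higher (4.76%). Dut was at -0.55 ± 0.07, Ctps at -0.42 ± 0.05 and Shmt1 at -0.41 ± 0.07. Of 16 chromatin assembly genes 9 were lower (56.25%) and 3 higher (18.75%). Dnmt1 was at -0.37 ± 0.06, Lsm11 at -0.36 ± 0.08 and Supt16 at -0.36 ± 0.06, and the histone chaperones Asf1a and Asf1b at 0.66 ± 0.10 and 0.39 ± 0.07, with Lsm10 at 0.32 ± 0.09. Asf1a also lies on chromosome 10, at 0.21 over its median.

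Of 22 genes of G2 and mitosis, 15 were lower (68.2%) and 2 higher (9.09%). Cenpf (-0.65 ± 0.08), Kif20a (-0.41 ± 0.06) and Ttk (-0.39 ± 0.07) were lower. Cenpf lies on chromosome 1 and was -0.44 from the median there. Cdk1, the mitotic kinase, measured 159, 167 and 159 CPM in KO and 107, 106 and 114 CPM in WT (0.57 ± 0.06, adjusted p = 2.4e-06). Cdk1 lies on chromosome 10 and was 0.12 over the median there. Ube2c was also higher, at 0.32 ± 0.07. Of the genes controlling the G1 to S step, 9 of 26 tested were higher (34.6%) and 7 lower (26.9%), near the 30.2% and 24.9% of all genes with a mean CPM of at least 10. Ccnd1, a cyclin D gene, measured 195, 186 and 213 CPM in KO and 85.7, 81.8 and 83.4 CPM in WT (1.24 ± 0.06, adjusted p = 3.6e-09), and Ccnd2 was at 0.77 ± 0.07. Myc measured 73.8, 73.7 and 74.6 CPM in KO and 141, 128 and 134 CPM in WT (-0.86 ± 0.06, adjusted p = 5.4e-08). E2f7 (-0.62 ± 0.10), a repressor of the family, and Tfdp2 (-0.46 ± 0.08), a partner of E2F proteins, were lower. E2f7 lies on chromosome 10 and was -1.07 from the median there. E2f6 had 23, 24 and 14 reads in KO and 0 in each WT library, at least 23.7-fold higher against a floor of 3 reads over the WT group. Cdkn1c, Cdkn2a and Cdkn2b were at 0 reads in all 6 libraries.

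**Figure D4:**
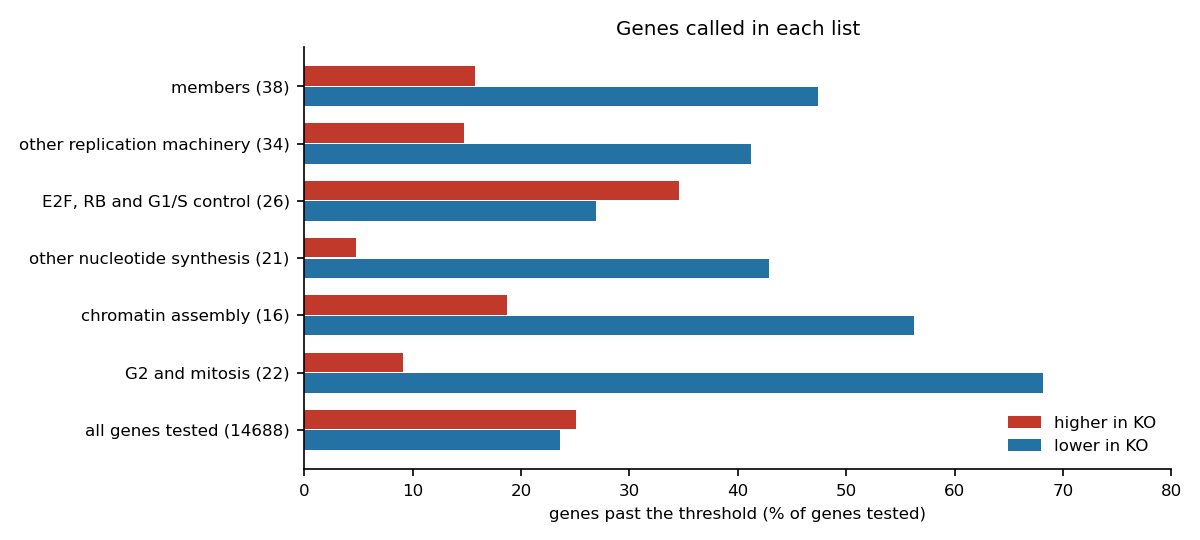
Percent of genes tested that were past the threshold and higher or lower in the libraries labelled KO, for the members, 5 lists of related genes and all genes tested (numbers tested in parentheses). Lower genes outnumber higher ones in 5 of the 6 lists, and the G1/S control list is the exception.

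Promoter sequence was described because E2F sites are a known feature of these genes. RefSeq windows (GRCm38.p6, 250 bases before to 50 after a start) were at hand for 30 members. The E2F letters searched on both strands were TTTCCCGC, TTTGGCGC, TTTCGCGC and TTTGCCGC, with CCAAT for NF-Y and TTTGAA for the cell cycle homology region. An E2F string stood in 13 of 30 members (43.3%), against 4.67% of 10167 tested genes with a window. It stood in 9 of 15 lower members, in 0 of 5 higher ones and in 4 of 10 not past the threshold. For the lower members Lig1 and Uhrf1 it stood only in a window starting 1543 and 992 bases inside the counted gene. Their outer windows held 0. The windows with the string also started over 50 bases inside the gene for Mcm7, a lower member (539 bases). So did those of Cdc6 (350 bases) and Gins3 (106 bases), both not past the threshold. CCAAT stood in 60% of members and 43.4% of tested genes, and TTTGAA in 13.3% and 14.2%. In 6 members every window started over 50 bases inside the counted gene, E2f1 by 466 bases, so what lies before their outer start was not searched. The stretches before the start of 3 lower members with E2F strings, in capitals, and of Ccne1, a higher one without, are shown 5′ to 3′ on the gene's strand. They lie at chr1:128359706-128359905 (minus strand) for Mcm6, chr8:75109309-75109508 (plus strand) for Mcm5, chrX:93632156-93632355 (minus strand) for Pola1 and chr7:38107535-38107690 (minus strand) for Ccne1. The Ccne1 stretch is 156 bases long, against 200 for the others. The 44 bases next to its start lie inside the counted gene and are not shown.
Mcm6: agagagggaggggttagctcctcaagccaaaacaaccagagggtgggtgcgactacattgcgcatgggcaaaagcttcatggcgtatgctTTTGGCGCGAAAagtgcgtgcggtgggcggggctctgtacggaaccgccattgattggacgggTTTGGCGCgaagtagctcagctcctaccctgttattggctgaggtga
Mcm5: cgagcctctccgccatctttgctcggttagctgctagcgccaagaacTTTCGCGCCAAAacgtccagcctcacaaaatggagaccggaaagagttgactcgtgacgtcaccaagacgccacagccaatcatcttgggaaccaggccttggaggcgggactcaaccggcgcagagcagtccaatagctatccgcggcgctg
Pola1: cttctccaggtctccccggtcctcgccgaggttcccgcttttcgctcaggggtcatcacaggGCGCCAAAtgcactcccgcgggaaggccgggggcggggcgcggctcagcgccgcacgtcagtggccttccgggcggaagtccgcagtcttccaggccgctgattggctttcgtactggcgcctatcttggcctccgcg
Ccne1: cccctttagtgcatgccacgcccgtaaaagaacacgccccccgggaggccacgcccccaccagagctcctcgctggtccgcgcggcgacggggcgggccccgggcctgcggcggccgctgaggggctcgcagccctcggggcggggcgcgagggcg
Mcm6 holds 3 matches in this stretch, Mcm5 holds 2 and Pola1 holds 1, with overlapping matches joined in 1 run of capitals.

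Circular RNAs of the member genes were compared as a separate readout. They are counted by reads across the back-splice junction, after RNase R digestion of linear RNA, and were given per 10000 junction reads of the library. Circles with both ends on exon edges came from 13 member genes in cytoplasm and 15 in total RNA. In cytoplasm the level was 32.4 and 30.9 in the WT libraries, against 24.9 and 25.1 for KO. The KO libraries were below both WT libraries, with a mean difference of -6.63 (p = 0.333 by exact permutation, two-sided, which is the minimum for 2 against 2, and 1 when adjusted over the 3 fractions). That separation rests on 1 host gene. With the circles of Pola1 left out, cytoplasm was at 22.1 and 21.8 in the WT libraries and 22.3 and 19.6 in KO, and the genotypes overlapped (difference -1.03). In total RNA the WT libraries were at 32.9 and 31.4, the KO libraries at 32 and 36.6, and the genotypes overlapped. Without Pola1 the KO libraries (23.9 and 29.4) lay above the WT ones (22.8 and 22.7) there, a mean difference of 3.88 (exact permutation p = 0.333). The nuclear lists held 0 circles of member genes. No listed nuclear circle had under 3 reads over the 4 libraries, so the lists leave out weaker ones. At the cytoplasmic level, between 5.45 and 14.2 reads a nuclear library would be spread over 33 circles, so nothing about the nuclear level of these circles can be read from their absence.

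**Figure D5:**
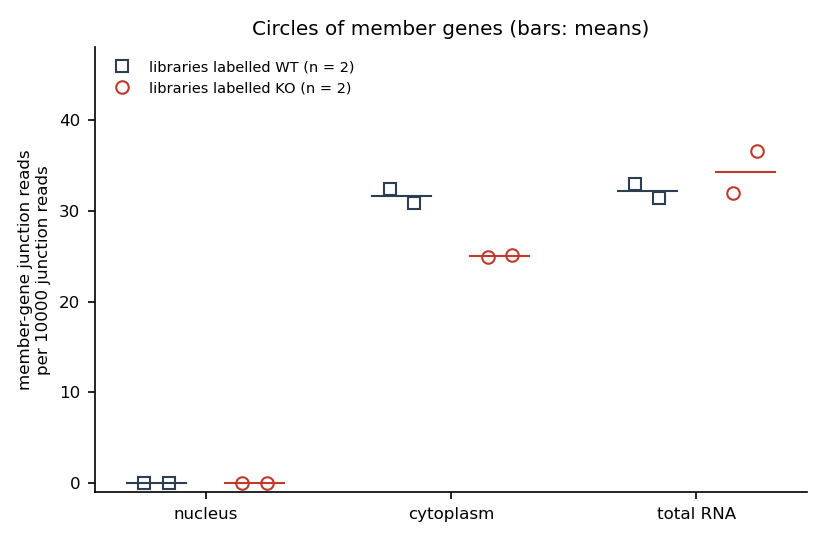
Junction reads of member-gene circles per 10000 junction reads in each circRNA-seq library, by fraction and genotype label (n = 2 each), with bars at the means. The KO points lie below the WT points in cytoplasm, a separation that is lost without the circles of Pola1, and overlap them in total RNA.

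Among host genes, Pola1 gave more of these reads than any other. Its circles were read 80 and 74 times in the WT cytoplasm, against 13 and 35 times in KO. The depths behind these values were 77818 and 81941 junction reads for WT, against 50629 and 63335 for KO. A circle of Pola1 at X:93420567-93480610 was read 25 and 26 times in the WT cytoplasm and 1 and 0 times in the KO cytoplasm. It was not listed in total RNA. No circle listed there had under 4 reads over the 4 libraries, so its absence from that list does not show that it had no reads. All Pola1 circles in total RNA were read 58 and 48 times in WT, against 47 and 36 times in KO. For Prim2, the WT cytoplasm gave 39 and 32 reads, against 15 and 10 for KO. Mcm6 went the other way, at 6 and 7 reads in the WT cytoplasm against 15 and 15 for KO, with its mRNA lower in KO. The circle at 1:128341285-128346013 gave 12 and 8 of these KO reads. In total RNA Mcm6 had 14 and 23 reads in WT against 13 and 15 in KO. Prim1 (2 and 0 reads in WT against 12 and 8 in KO) and Mcm3 (1 and 3 against 4 and 8) were also higher in KO cytoplasm. No single circle was tested.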

How the data were processed

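Per the file headers, the authors counted read pairs per gene with featureCounts (version 2.0.0) over exons, without strand, after HISAT2 (mm10 per the labels), and deposited whole-number counts. Reads in several genes or places were not assigned. The circRNA files hold the authors' deposited counts of junction reads from find_circ, and their filters are not given in the sources used here. From 5 to 7 nuclear circles a library with several positions were left out. IDs of 55141 of 55401 genes matched a symbol.

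For mRNA, edgeR's quasi-likelihood test (glmQLFit and glmQLFTest, version 4.0.16, in R 4.3.3) was run after filterByExpr and TMM, with genotypes from sample titles and a threshold of 0.05. It was also run on counts simulated from its own fit to these data, which cannot check that model. TPM was computed from counts and exon length. Circle totals were compared by exact permutation (scipy). Alternatives were DESeq2 (version 1.42.0), other scalings, no filter, a replicate block, leaving out each library and, added after seeing the data, removal of the length and GC trend and of the circles of Pola1. All members were named by role, with library values for those past the threshold and the extremes of each role, and up to 3 genes a direction of other lists. Members and lists were chosen with earlier results of these data known. Depth was between 16974062 and 22057323 counted reads per mRNA library and between 2189 and 81941 junction reads per circRNA library.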

Additional observations from a re-analysis of the deposited data

How the results depend on the processing

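Of the 24 members past the threshold, 20 (17 lower, 3 higher) kept their call under all 13 alternatives. Orc6, Prim2, Fen1 and Ccne2 lost it under at least 1. With the length and GC trend removed, chosen after seeing the data, the member median moved from -0.16 to -0.23, both without and with the replicate block (-0.233 and -0.234), and calls in other nucleotide synthesis rose from 10 to 16 (16 with the block). Higher members went from 6 to 3 with that trend removed and the block. That adjustment moved the median of all genes to -0.05. Leaving out each library gave between 17 and 20 lower members, between 4 and 7 higher, and a member median between -0.21 and -0.14. In total RNA the circle difference ranged from -0.16 to 4.41, and it reversed to -0.16 without KO replicate 2. The same-numbered libraries did not pair (correlations of deviations 0.06, 0.04 and -0.09), and the replicate block gave 19 lower and 6 higher members, Cdt1 being added (adjusted p = 0.045, edgeR). Without the circles of Pola1, also chosen after seeing the data, the cytoplasmic difference went from -6.63 to -1.03. The filters and depth of the nuclear lists limit what can be seen there.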
